A study of Homo sapiens with 8 samples.

Results

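The genes described here encode 36 nuclear-encoded subunits of complex I, the NADH:ubiquinone oxidoreductase of the mitochondrial respiratory chain. They were chosen by name, from a list of symbols matched to the Ensembl identifiers of the count tables. All 36 symbols matched a row among the 58395 genes listed per library, and all 36 were among the 16503 genes that passed a filter on low counts. By name they fall into 12 NDUFA, 11 NDUFB, 2 NDUFC, 7 NDUFS and 3 NDUFV genes and NDUFAB1.

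Complex I takes electrons from NADH through a flavin and a chain of iron-sulfur clusters to ubiquinone and pumps protons across the inner mitochondrial membrane. Its core subunits hold the cofactors or form the proton channels, and the accessory subunits surround and stabilise them. The subunits encoded in mitochondrial DNA are made on mitochondrial ribosomes, whereas the subunits described here are made on cytosolic ribosomes and imported.

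The libraries came from OCI-AML3, an established human acute myeloid leukaemia line, infected with a control hairpin (shCT) or a hairpin against FBL (shFBL). FBL encodes fibrillarin, the nucleolar methyltransferase that modifies ribosomal RNA. Before lysis all cells received cycloheximide (100 µg/mL, 15 min) to keep ribosomes in place on mRNAs, and each cleared lysate gave input RNA and, from a sucrose gradient, polysome RNA. RNA bound by several ribosomes sediments into the polysome fractions; the sources used here do not give which of the 14 fractions were combined. The 4 groups of 2 libraries were input RNA with the genotype label WT, input RNA with the label FBL knockdown, and polysome RNA with each of these labels. They are called labelled control and labelled knockdown below, with the library numbers 1 and 2 of the sample titles. The labels name neither the number of hairpins nor whether the 2 libraries of each group were infected separately. The p-values therefore reflect only how far these libraries differ, and that spread may be technical.

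FBL itself (ENSG00000105202, GRCh38 chromosome 19: 39834458 to 39846414, minus strand) went with the library number and not with the genotype label. Its level in CPM, its count scaled to the library's total after TMM normalization, was 250 and 88.1 in input control 1 and 2, and 253 and 84.2 in input knockdown 1 and 2. In polysome RNA it was 498 and 163 in the labelled controls and 499 and 165 in the labelled knockdowns. Between labels the log2 fold change was -0.01 in input and 0.01 in polysome RNA. Between libraries numbered 2 and 1 it fell by 1.54 in input RNA (SE 0.13, adjusted p = 0.0037, edgeR) and by 1.60 in polysome RNA (SE 0.13, adjusted p = 0.0026, edgeR). The complex I genes are therefore described along both splits, by label and by number, neither of which is called a knockdown effect here.

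Gene counts came to 22.2 to 43.1 mega-counts (M) per library, with polysome knockdown 2 the shallowest, and every complex I gene had at least 100 counts in every library. Polysome libraries held less mitochondrial ribosomal RNA (0.0426% to 0.102% of gene counts) than input libraries (1.25% to 1.52%). Of 9 myeloid markers, SPI1 (mean 830 CPM in input RNA), CEBPA (202 CPM) and FCER1G (175 CPM) were among the higher ones and MPO was at 1.39 CPM. The lymphoid markers CD3E, CD3D, CD2, CD8A and MS4A1 and the erythroid and megakaryocyte markers GP9 and PF4 had a mean of 0 in both fractions.

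The first question was how these mRNAs were distributed between polysome and input RNA. As a set they took 0.442% to 0.485% of gene counts in the 4 input libraries and 0.689% to 0.809% in the 4 polysome libraries. Of the 36 genes, 26 were higher in polysome than in input RNA, 4 were lower (NDUFS1, NDUFB5, NDUFA5 and NDUFA10) and 6 were not called (edgeR quasi-likelihood test, adjusted p under 0.05). Over all genes tested, 42.9% were called, 20% higher and 22.8% lower. The median log2 fold change was 0.74 over the complex I genes and -0.22 over all genes, and each value below is to be read relative to that shift. The size of the shift depends on which genes are counted. Across quintiles of coding length, protein-coding genes had medians of -0.01 to -0.18, and 22.3% to 29.5% of them were called higher. A higher value says that a larger share of polysome than of input reads came from the gene; it does not give the number of ribosomes per mRNA.

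The pattern was the same in direction in each of the 4 lysates. The median log2 ratio of polysome to input CPM over the 36 genes was 0.77 and 0.85 in the labelled control lysates 1 and 2, and 0.72 and 0.77 in the labelled knockdown lysates 1 and 2. Over all tested genes with reads in the input and the polysome library of a lysate, the medians were -0.02, -0.02, -0.04 and -0.06 in the same order. In all 4 lysates the ratio was above 0 for 28 complex I genes and below 0 for 5, and 3 had ratios on both sides. The shares of all genes with such ratios were not counted. For 23 genes all polysome libraries lay above all input libraries, which held for 17.7% of all genes tested. For 4 genes they all lay below, which held for 22.7% of all genes.

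**Figure D1:**
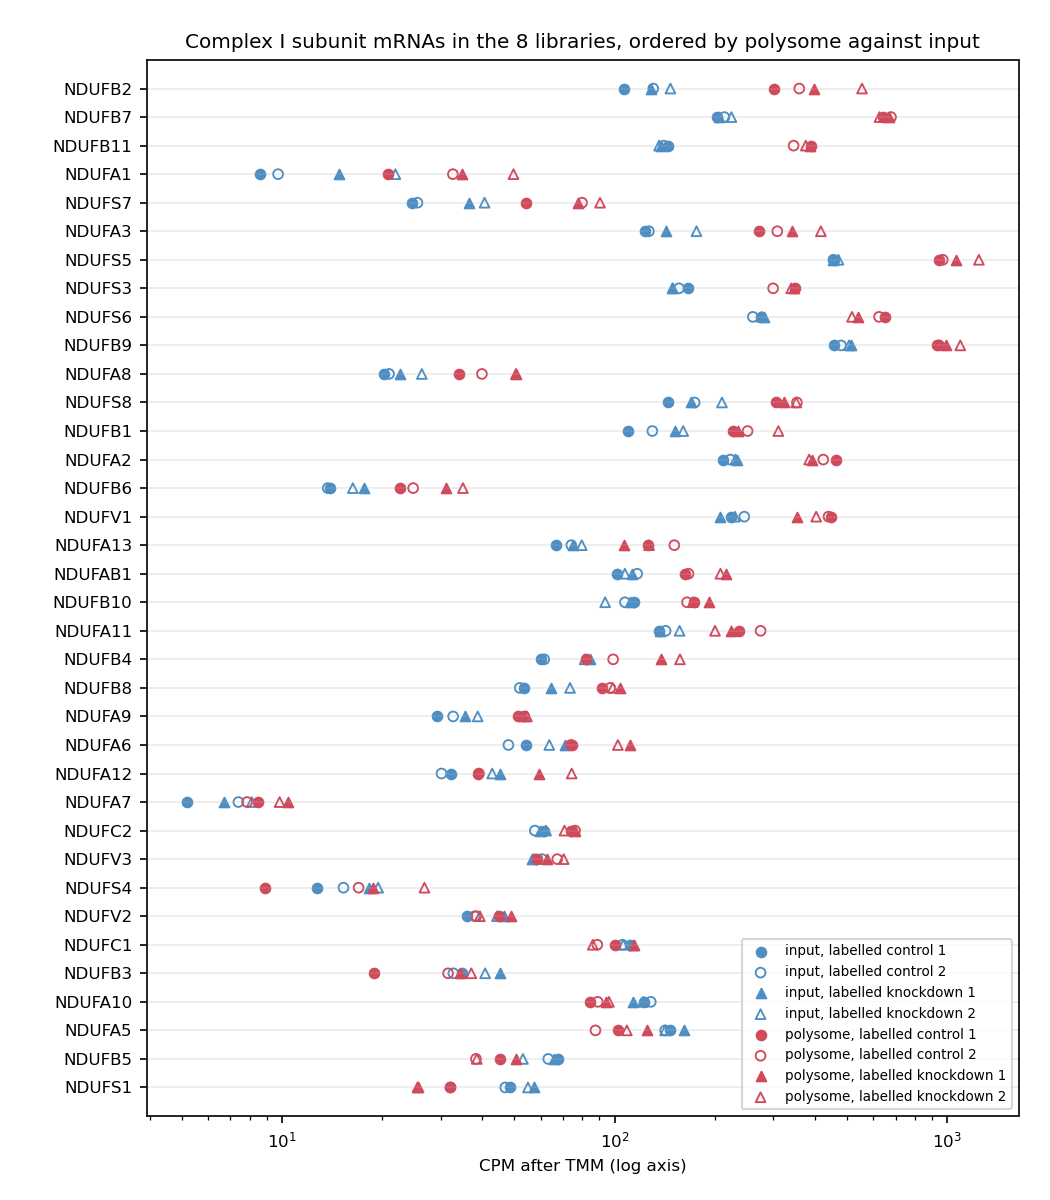
CPM after TMM (log axis) of the 36 complex I genes in each of the 8 libraries, with input in blue and polysome in red, circles for labelled control and triangles for labelled knockdown, filled for library 1 and open for library 2. Genes are ordered by polysome against input RNA; NDUFB2 and NDUFB7 stand at the top with all red points to the right of the blue ones, and NDUFS1 at the bottom with all red points to the left.

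The single genes with the largest values, NDUFB2, NDUFB7 and NDUFB11, were in the NDUFB family, accessory subunits of the membrane arm. Of the 11 NDUFB genes 9 were higher in polysome RNA and 1 was lower. The NDUFB median was 0.87, below the NDUFS median of 1.08. NDUFB7, a small subunit on the intermembrane-space side (ENSG00000099795, chromosome 19: 14566078 to 14572062, minus strand), was at 203, 214, 206 and 225 CPM in input control 1 and 2 and input knockdown 1 and 2. In the polysome libraries in the same order it was at 643, 678, 669 and 626 CPM. All polysome values were above all input values, with a difference of 1.63 on the log2 scale (SE 0.07, adjusted p = 4.9e-07, edgeR).

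NDUFB2 (ENSG00000090266, chromosome 7: 140690777 to 140722790, plus strand) was at 106, 131, 128 and 147 CPM in input and at 302, 359, 398 and 555 CPM in polysome RNA. Its polysome libraries were spread more widely than those of NDUFB7, and the log2 fold change was 1.63 (SE 0.12, adjusted p = 5.4e-06, edgeR). NDUFB11, another subunit of the membrane arm (chromosome X: 47142216 to 47145504, minus strand), was at 145, 141, 138 and 136 CPM in input and at 388, 346, 387 and 376 CPM in polysome RNA, a difference of 1.42 on the log2 scale (SE 0.07, adjusted p = 1.1e-06, edgeR). These groups did not overlap either.

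NDUFB5 and NDUFB3 had the lowest values of the NDUFB genes. NDUFB5 (ENSG00000136521, chromosome 3: 179604690 to 179627647, plus strand) was at 67.5, 63.2, 65.7 and 53.0 CPM in input and at 45.2, 38.3, 50.5 and 38.5 CPM in polysome RNA, so that every polysome library was below every input library. Its log2 fold change was -0.53 (SE 0.13, adjusted p = 0.0067, edgeR), but the sign turned with an offset for GC content and length in the fit, to 0.36 (adjusted p = 0.023, edgeR). NDUFB3 was at 34.8, 32.8, 45.4 and 40.8 CPM in input and at 18.9, 31.6, 34.3 and 37.1 CPM in polysome RNA, with overlapping groups. Its log2 fold change of -0.35 was not called (adjusted p = 0.11, edgeR), but with each lysate entered as a block it was -0.37 and was called (adjusted p = 0.034, edgeR), and so was -0.57 without polysome control 2 (adjusted p = 0.0075, edgeR).

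The NDUFS family includes the iron-sulfur subunits of the peripheral arm, and 5 of its 7 genes were higher and 1 was lower in polysome RNA, with a median of 1.08. NDUFS6, a zinc-binding accessory subunit (ENSG00000145494, chromosome 5: 1801400 to 1816605, plus strand), was at 276, 261, 282 and 277 CPM in input and at 650, 624, 541 and 518 CPM in polysome RNA. The groups did not overlap and the log2 fold change was 1.08 (SE 0.06, adjusted p = 1.9e-06, edgeR). NDUFS7, a core subunit that holds an iron-sulfur cluster next to the quinone site (ENSG00000115286, chromosome 19: 1383527 to 1395589, plus strand), was at 24.6, 25.6, 36.5 and 40.7 CPM in input and at 54.3, 79.9, 77.4 and 90.4 CPM in polysome RNA. Its log2 fold change was 1.27 (SE 0.14, adjusted p = 4.3e-05, edgeR).

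NDUFS1, the largest of the core subunits (ENSG00000023228, chromosome 2: 206114817 to 206159603, minus strand), had the lowest value of all 36 genes. It was at 48.6, 46.9, 57.4 and 54.9 CPM in input and at 32.0, 32.1, 25.4 and 25.8 CPM in polysome RNA. Every polysome library was below every input library, and the log2 fold change was -0.86 (SE 0.10, adjusted p = 8.0e-05, edgeR).

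The NDUFA family is made up of accessory subunits of both arms. Of its 12 genes 9 were higher and 2 were lower, with a median of 0.68. NDUFA1, a short subunit with a membrane-spanning helix (chromosome X: 119871487 to 119876662, plus strand), was at 8.59, 9.73, 14.8 and 21.9 CPM in input and at 20.9, 32.7, 34.7 and 49.7 CPM in polysome RNA. The highest input library was above the lowest polysome library, but the ratio was above 0 in every lysate, and the log2 fold change was 1.37 (SE 0.21, adjusted p = 0.00040, edgeR). NDUFA3 (chromosome 19: 54102728 to 54109257, plus strand) was at 124, 127, 143 and 176 CPM in input and at 272, 309, 341 and 417 CPM in polysome RNA, with no overlap and a difference of 1.23 on the log2 scale (SE 0.10, adjusted p = 7.3e-06, edgeR).

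NDUFA5 and NDUFA10 were the 2 NDUFA genes that were lower in polysome RNA. NDUFA5, an accessory subunit of the peripheral arm (ENSG00000128609, chromosome 7: 123536997 to 123558255, minus strand), was at 146, 142, 162 and 142 CPM in input and at 102, 87.6, 125 and 109 CPM in polysome RNA, a difference of -0.49 on the log2 scale (SE 0.09, adjusted p = 0.0015, edgeR). This sign also turned with the GC and length offset, to 0.43 (adjusted p = 0.0041, edgeR). NDUFA10, an accessory subunit with a fold related to nucleoside kinases (ENSG00000130414, chromosome 2: 239892450 to 240025402, minus strand), was at 122, 129, 114 and 122 CPM in input and at 84.2, 89.0, 94.0 and 96.2 CPM in polysome RNA, a difference of -0.42 on the log2 scale (SE 0.08, adjusted p = 0.0013, edgeR). For both genes the input and polysome libraries did not overlap.

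The remaining families were small. Of the 2 NDUFC genes, NDUFC2 was higher in polysome RNA (0.30, SE 0.09, adjusted p = 0.018, edgeR). NDUFC1 was at 111, 106, 113 and 106 CPM in input and at 101, 88.8, 115 and 86.0 CPM in polysome RNA, with overlapping groups and a log2 fold change of -0.16 that was not called (adjusted p = 0.24, edgeR). Without polysome knockdown 1 it was -0.28 and was called (adjusted p = 0.029, edgeR). Of the 3 NDUFV genes of the NADH-oxidising end, NDUFV1, which binds the flavin, was higher (0.85, SE 0.08, adjusted p = 1.3e-05, edgeR). NDUFV2 (0.07) and NDUFV3 (0.16) were not called. NDUFAB1, the mitochondrial acyl carrier protein, was higher (0.77, SE 0.08, adjusted p = 3.0e-05, edgeR).

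Split by role, 4 of the 6 nuclear core subunits were higher and 1 was lower, with a median of 0.89, and 22 of the 30 accessory subunits were higher and 3 were lower, with a median of 0.71. Within the core, NDUFS7, NDUFS3 (1.10), NDUFS8 (0.94) and NDUFV1 were the higher genes, NDUFS1 the lower gene and NDUFV2 the gene not called. Levels per kilobase of the principal transcript in input RNA ran from 4.07 CPM per kb for NDUFA9 and 4.40 for NDUFS1 to 839 CPM per kb for NDUFS5. NDUFS5 was followed by NDUFB9 at 689 and NDUFB7 at 399 CPM per kb. The per-length values assume that the cells use the annotated principal transcript, which for NDUFS1 is 11819 bases long.

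**Figure D2:**
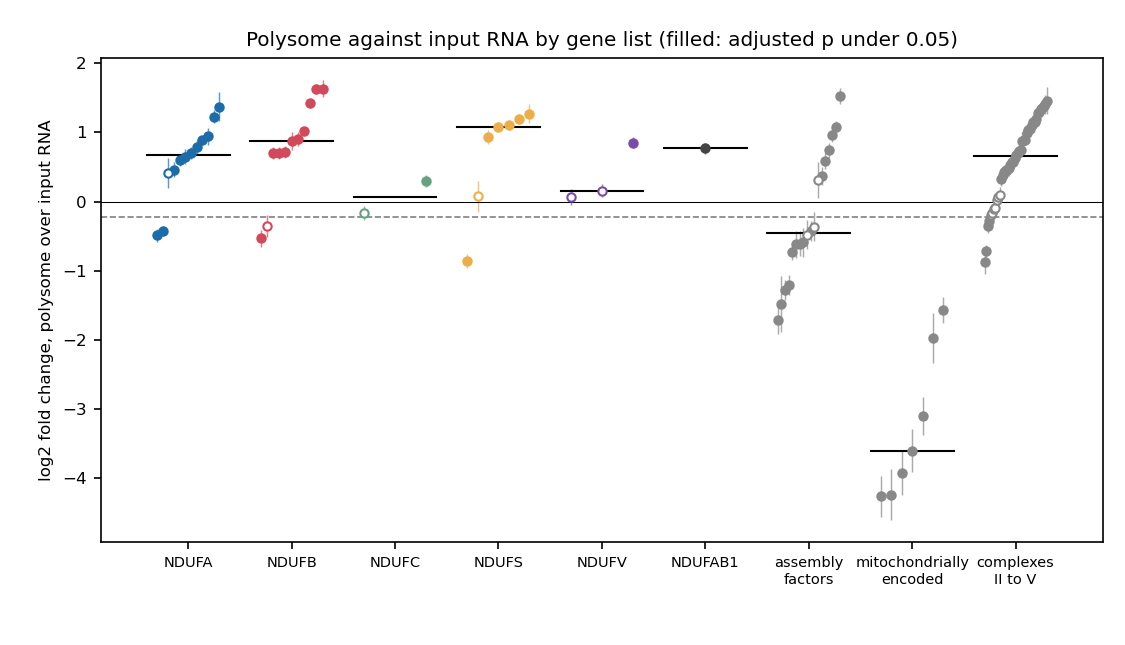
Log2 fold change of polysome over input RNA for each complex I gene by family and for the genes of 3 other lists, with SE bars, filled where adjusted p was under 0.05; black lines are list medians and the dashed line is the median of all genes tested, -0.22. The NDUFA, NDUFB and NDUFS medians of 0.68, 0.87 and 1.08 lie above the dashed line, and all 7 mitochondrially encoded genes lie below it.

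Genes whose products work with these subunits were set beside them. Of 42 genes for subunits of complexes II to V, 31 were higher and 4 were lower in polysome RNA, with a median of 0.66; COX7A2 (1.46) and COX7B (1.40), both of cytochrome c oxidase, had the largest absolute values among those called. Of 18 complex I assembly factors, which help build the complex and are not part of it, 6 were higher and 9 were lower, with a median of -0.45. Within that list NDUFAF7, a methyltransferase that acts on a core subunit, was at -1.71 (SE 0.20, adjusted p = 7.2e-05, edgeR) and NDUFAF3 was at 1.53 (SE 0.11, adjusted p = 4.9e-06, edgeR). These counts are descriptions and the lists were not tested against each other.

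The 7 complex I subunits encoded in mitochondrial DNA were all lower in polysome RNA, with a median of -3.60. MT-ND2 was at 5049, 4492, 4768 and 4472 CPM in input and at 191, 230, 143 and 431 CPM in polysome RNA, a difference of -4.26 on the log2 scale (SE 0.29, adjusted p = 3.3e-06, edgeR). MT-ND4 followed at -4.23 (SE 0.36, adjusted p = 1.1e-05, edgeR). The nuclear-encoded and mitochondrially encoded subunits of the same enzyme thus lay on opposite sides of the all-gene median, apart from the 4 nuclear genes called lower and NDUFB3, which were also below it.

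Base composition varied among the complex I genes at both ends of the order. The first 180 coding bases of the principal transcripts (GENCODE v29, GRCh38, 5′ to 3′ on the coding strand, all exonic) are shown for the 4 genes with the largest log2 fold change and for the 4 genes called lower in polysome RNA, to set their composition beside their values. Capitals mark a G or C at the third base of a codon, the position at which most codons can vary without changing the amino acid. NDUFB2, NDUFB7, NDUFB11 and NDUFA1 come first, then NDUFA10, NDUFA5, NDUFB5 and NDUFS1.
NDUFB2: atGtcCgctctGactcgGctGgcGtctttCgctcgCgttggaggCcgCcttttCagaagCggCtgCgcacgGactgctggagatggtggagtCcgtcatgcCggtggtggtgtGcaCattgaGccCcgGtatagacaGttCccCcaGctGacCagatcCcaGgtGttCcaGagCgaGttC
NDUFB7: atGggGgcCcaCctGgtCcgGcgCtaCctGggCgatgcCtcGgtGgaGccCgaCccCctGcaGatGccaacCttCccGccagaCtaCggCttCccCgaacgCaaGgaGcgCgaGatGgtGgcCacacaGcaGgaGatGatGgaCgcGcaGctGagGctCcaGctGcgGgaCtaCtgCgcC
NDUFB11: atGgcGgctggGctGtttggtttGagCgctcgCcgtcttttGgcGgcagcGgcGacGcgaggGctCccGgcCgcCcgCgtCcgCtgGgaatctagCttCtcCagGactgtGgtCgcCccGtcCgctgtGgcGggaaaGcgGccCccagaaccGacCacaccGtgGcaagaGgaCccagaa
NDUFA1: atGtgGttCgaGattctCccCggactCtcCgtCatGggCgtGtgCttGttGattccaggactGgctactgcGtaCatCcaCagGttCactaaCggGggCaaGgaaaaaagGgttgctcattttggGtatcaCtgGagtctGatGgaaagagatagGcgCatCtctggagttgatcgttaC
NDUFA10: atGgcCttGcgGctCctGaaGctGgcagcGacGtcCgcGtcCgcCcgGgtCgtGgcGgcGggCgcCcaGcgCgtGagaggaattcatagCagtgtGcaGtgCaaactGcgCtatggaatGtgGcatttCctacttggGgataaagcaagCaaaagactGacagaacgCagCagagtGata
NDUFA5: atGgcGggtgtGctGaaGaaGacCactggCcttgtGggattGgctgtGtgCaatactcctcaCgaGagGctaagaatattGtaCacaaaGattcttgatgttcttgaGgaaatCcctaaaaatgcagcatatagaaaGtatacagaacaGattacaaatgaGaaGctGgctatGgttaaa
NDUFB5: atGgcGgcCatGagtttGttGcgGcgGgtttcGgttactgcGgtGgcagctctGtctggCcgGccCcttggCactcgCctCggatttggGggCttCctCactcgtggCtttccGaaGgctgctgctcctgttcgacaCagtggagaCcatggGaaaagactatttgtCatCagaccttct
NDUFS1: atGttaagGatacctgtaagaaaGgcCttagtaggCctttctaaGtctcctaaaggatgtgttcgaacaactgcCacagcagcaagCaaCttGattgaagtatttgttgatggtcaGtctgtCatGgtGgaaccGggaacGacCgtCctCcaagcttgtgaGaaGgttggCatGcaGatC

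Of these 60 codons, 55 ended in G or C in NDUFB7, 41 in NDUFB11, and 36 each in NDUFB2 and NDUFA1. Among the genes called lower the count was 39 in NDUFA10, 30 in NDUFB5, 26 in NDUFA5 and 25 in NDUFS1. Over the whole coding sequence the share was 91.2% in NDUFB7, 71.2% in NDUFB11, 58.6% in NDUFA1 and 55.2% in NDUFB2. It was 37.9% in NDUFA5, 39.7% in NDUFB5 and 38.2% in NDUFS1, but 60.0% in NDUFA10, which is more than in NDUFA1 or NDUFB2, so the order by polysome association was not the order by composition. Over the 36 genes the share ran from 35.7% in NDUFB3 to 91.2% in NDUFB7 with a median of 59.3%, and the median over 13018 protein-coding genes tested was 60.5%.

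Along GC content, the complex I genes followed the same direction as all genes but at higher values. The Spearman correlation between exon GC content and the log2 fold change of polysome over input RNA was 0.56 over the 36 genes and 0.47 over 16477 genes, given as a description because genes share libraries and neighbours in composition. Among all genes the median log2 fold change went across quintiles of GC content from -0.87 through -0.54, -0.17 and 0.28 to 0.52. The complex I genes in those quintiles had medians of -0.51 (2 genes), 0.56 (10 genes), 0.65 (10 genes), 1.08 (7 genes) and 0.94 (7 genes). In the lowest quintile none of the 2 was called higher, where 1.49% of all genes were, and in the highest all 7 were, where 43.6% of all genes were. By the share of G or C at the third codon base, none of the 5 complex I genes in the lowest quintile was called higher (1.96% of all genes were) and 3 were called lower. The share of all genes called lower there was not counted, so the 3 have no background to be read against. The median in that quintile was -0.77 over all genes and -0.49 over the 5. All 6 in the highest quintile were called higher (46.1% of all genes were).

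Length did not order the complex I genes in the same way as GC content. They were short: the median coding length was 427.5 bases against 1374 over all protein-coding genes tested, and 30 of the 36 lay in the shortest quintile of coding length (75 to 738 bases). All genes of that quintile had a median log2 fold change of -0.01 and the 30 complex I genes had 0.78. By exon length, the 18 complex I genes of the shortest quintile had a median of 0.74 (all genes -0.38) and the 4 of the longest had -0.46 (all genes -0.26). The Spearman correlation with exon length was -0.33 over the complex I genes and 0.04 over all genes. NDUFS1 (12268 exon bases), NDUFA5 (9851 bases) and NDUFA10 (9517 bases) were among the longest and were lower in polysome RNA, whereas NDUFA9 (10391 bases) was higher (0.65).

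**Figure D3:**
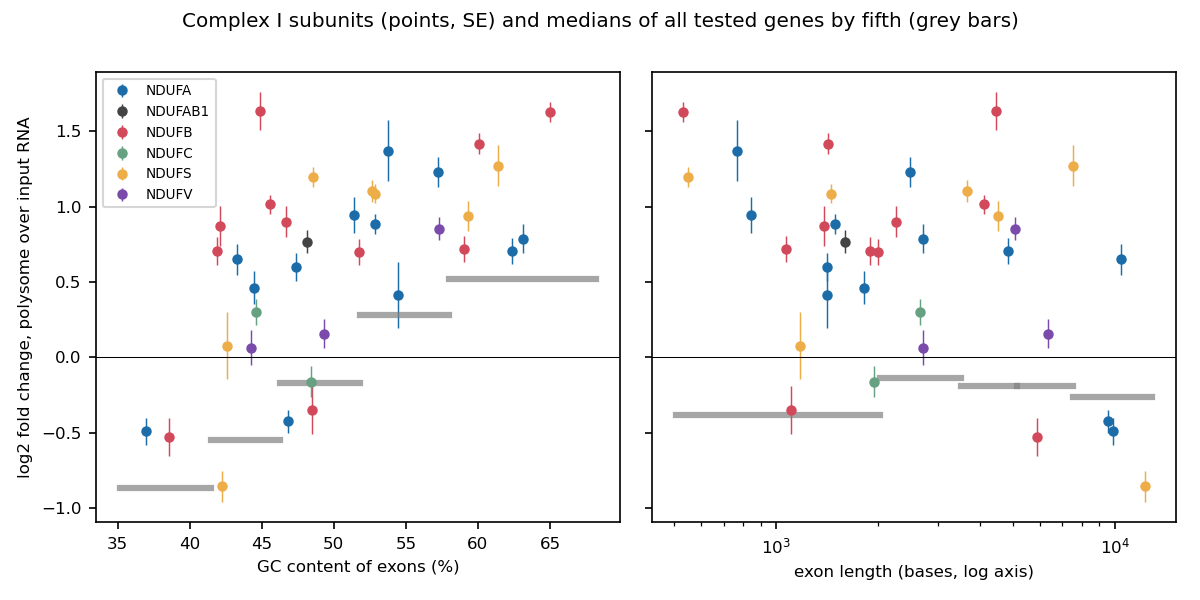
Log2 fold change of polysome over input RNA against exon GC content (left, percent) and exon length (right, bases, log axis) for the 36 complex I genes, coloured by family with SE bars; grey bars are medians of all tested genes in each quintile. The grey bars climb with GC content from -0.87 to 0.52 and stay between -0.38 and -0.13 along length, and most complex I genes lie above them.

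With GC content and length entered as an offset in the fit, 28 complex I genes were higher and 2 were lower, with a median of 0.74. NDUFB5 and NDUFA5 then had positive values, as given above, and the offset changed GC content and length together, so which of them moved these values was not tested. NDUFS1 (-0.35, adjusted p = 0.025, edgeR) and NDUFA10 (-0.26) stayed below 0, and NDUFB7 was at 1.17 and NDUFB2 at 2.07. The offset also moved the split over all genes from 3306 higher and 3766 lower to 2812 higher and 1962 lower.

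Gene overlap and pseudogenes limit how reads can be assigned, since the sources used here do not give the strand setting of the counting. An annotated gene overlaps 24 of the 36 genes. The other 12 had a median of 0.74 with 9 higher and 1 lower, and the 24 had 0.75 with 17 higher and 3 lower. The 17 genes with an annotated processed or other pseudogene had a median of 0.77 and the 19 without had 0.71. NDUFA5 and NDUFB4 have 12 pseudogenes each, so their values are uncertain to the extent that reads were placed there.

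The split by genotype label was examined in input RNA first. No complex I gene was called between labelled knockdown and labelled control by edgeR, and no gene of the 16503 was (0%). At an unadjusted p under 0.05 there were 8 complex I genes and 744 genes in all. The log2 fold change was positive for 29 of the 36 genes, with a median of 0.18 against 0.00 over all genes. For 19 genes both labelled knockdown libraries lay above both labelled controls (21.1% of all genes did), and for 4 they lay below (20.3% of all genes).

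The 3 genes with the smallest p in this comparison were NDUFA1, NDUFB4 and NDUFS7. NDUFA1, with the CPM values given above, had a value of 1.00 on the log2 scale (SE 0.29, adjusted p = 0.81, edgeR). NDUFB4 had 0.44 (SE 0.13, adjusted p = 0.81, edgeR) and NDUFS7 had 0.62 (SE 0.19, adjusted p = 0.82, edgeR). For each of them both labelled knockdown libraries were above both controls. The 95% interval of the change lay within 1 log2 unit of 0 on both sides for 33 of the 36 genes. The highest bound was 1.65, for NDUFA1.

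In polysome RNA, NDUFB4 was the only complex I gene called between the labels. Over all genes 0.879% were called, 0.248% higher and 0.63% lower in the labelled knockdown. NDUFB4 encodes an accessory subunit of the membrane arm (ENSG00000065518, chromosome 3: 120596309 to 120602500, plus strand). It was at 60.3, 61.5, 84.1 and 81.3 CPM in input and at 81.9, 99.0, 138 and 157 CPM in polysome RNA, with both labelled knockdown libraries above both controls in each fraction. The log2 fold change in polysome RNA was 0.71 (SE 0.13, adjusted p = 0.043, edgeR). The call did not hold with the GC and length offset (0.63, adjusted p = 0.096, edgeR), in a fit of the 4 polysome libraries alone (0.78, adjusted p = 0.27, edgeR), or when any of 7 of the 8 libraries was left out. The value over these ran from 0.58 to 0.86, and the call held only without polysome knockdown 1.

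Others came close to the threshold. NDUFA12, an accessory subunit of the peripheral arm, was at 32.2, 30.2, 45.1 and 42.9 CPM in input and at 38.9, 39.1, 59.2 and 74.3 CPM in polysome RNA, or 0.78 between labels on the log2 scale (SE 0.15, adjusted p = 0.053, edgeR). Without polysome knockdown 1 it was 0.93 and was called (adjusted p = 0.011, edgeR). NDUFA6 was at 54.3, 48.0, 71.1 and 63.7 CPM in input and at 74.4, 74.0, 111 and 102 CPM in polysome RNA, or 0.52 between labels on the log2 scale (SE 0.13, adjusted p = 0.086, edgeR). In both genes the labelled knockdown libraries were above the controls in each fraction.

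Over the 36 genes the median change in polysome RNA was 0.12 against -0.06 over all genes, and 15 genes had an unadjusted p under 0.05, as did 2987 of the 16503 genes tested. Both labelled knockdown libraries lay above both controls for 18 genes (15.4% of all genes) and below for 5 (23.6%). The NDUFA median was 0.31, the NDUFB median 0.15 and the NDUFS median 0.08. NDUFS6 (-0.27, adjusted p = 0.16, edgeR) and NDUFS1 (-0.33, adjusted p = 0.26, edgeR) were among those with negative values and were not called. Of complexes II to V, COX5A of cytochrome c oxidase was the gene called (0.95, SE 0.18, adjusted p = 0.044, edgeR), and no assembly factor or mitochondrially encoded subunit was called. The Spearman correlation with GC content was -0.37 over the complex I genes and -0.05 over all genes, and with exon length -0.39 and -0.07.

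Summed levels of 2 marker lists were higher in the labelled knockdowns in polysome RNA. The summed level of the 9 lymphoid markers was 4.08 to 4.28 CPM in the labelled controls and 7.08 to 8.25 CPM in the labelled knockdowns, with 3 of the 9 passing the filter and none called. That of the 9 erythroid and megakaryocyte markers was 18.8 to 19.0 and 23.5 to 31.0 CPM, with 4 of 9 passing the filter and none called. Of the 9 myeloid markers FCER1G was called (1.12, adjusted p = 0.036, edgeR) and the other 8 were not. FCER1G was added to the list after the data had been seen, so its call is no result about the list. The part of these marker lists in the NDUFB4 result was not tested.

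The difference between the labels in polysome association, fitted as an interaction, was called for no complex I gene by edgeR and for none of the genes tested (0%); 3 complex I genes and 1046 genes had an unadjusted p under 0.05. The smallest p belonged to NDUFS1, with a log2 difference of -0.56 (SE 0.20, adjusted p = 0.77, edgeR). It was followed by NDUFS6 (-0.33, SE 0.12) and NDUFAB1 (0.36, SE 0.15), both with an adjusted p of 0.77 (edgeR). For NDUFS1 the labelled knockdowns were higher in input and lower in polysome RNA than the controls, as the levels above show. A fit with each lysate as a block called 9 genes in all, none of them a complex I gene. The change of NDUFB4 was 0.27 larger in polysome than in input RNA (SE 0.18, adjusted p = 0.81, edgeR).

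The split by library number, which FBL followed, was examined in the same way. No complex I gene was called by edgeR between libraries 2 and 1 in input RNA (0.0121% of all genes were), in polysome RNA (0.0182%, with 0.00606% higher and 0.0121% lower) or in the difference between the fractions (0%). None of the 36 had an unadjusted p under 0.05 in any of the 3 comparisons, against 320, 1493 and 557 of all genes. The medians over the complex I genes were 0.04, 0.05 and -0.01. A fit with each lysate as a block called 6 genes overall in the difference between the fractions, none of them a complex I gene.

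Values for the genes with the smallest p show these differences beside their error. The fit by number left the label out, so differences between labels counted into that error. In input RNA the median SE over the 36 genes was 0.17 in this fit and 0.14 in the fit by label. In input RNA they were NDUFS8 (0.29, SE 0.15), NDUFA7 (0.39, SE 0.32) and NDUFB5 (-0.20, SE 0.16), each with an adjusted p of 1 (edgeR). NDUFS8, a core subunit with a pair of iron-sulfur clusters, was at 144 and 170 CPM in the libraries numbered 1 and at 174 and 210 CPM in those numbered 2. In polysome RNA they were NDUFC1 (-0.30, SE 0.14), NDUFB5 (-0.32, SE 0.16) and NDUFB2 (0.38, SE 0.22), with adjusted p of 0.56, 0.58 and 0.60 (edgeR). NDUFC1 was at 101 and 115 CPM in polysome libraries 1 and at 88.8 and 86.0 CPM in polysome libraries 2, and its groups did not overlap. In the difference between the fractions they were NDUFB3 (0.49, SE 0.40), NDUFC1 (-0.22, SE 0.20) and NDUFA7 (-0.49, SE 0.45), each with an adjusted p of 1 (edgeR).

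Groups numbered 2 lay above groups numbered 1 for 6 complex I genes and below for 4 in input RNA, where 17.3% and 18.2% of all genes did. In polysome RNA they lay above for 5 and below for 6, where 14% and 15.7% of all genes did. The 95% interval lay within 1 log2 unit of 0 for 34 of the 36 genes in input and for 34 in polysome RNA. Smaller changes were not detectable for every gene with 2 libraries a group. The 7 mitochondrially encoded subunits all had positive values in polysome RNA (median 0.97, lowest adjusted p = 0.25, edgeR), and none was called; polysome knockdown 2 held the most mitochondrial ribosomal RNA of the polysome libraries, at 0.102%. Whether the 2 kinds of subunit differed in this split was not tested.

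**Figure D4:**
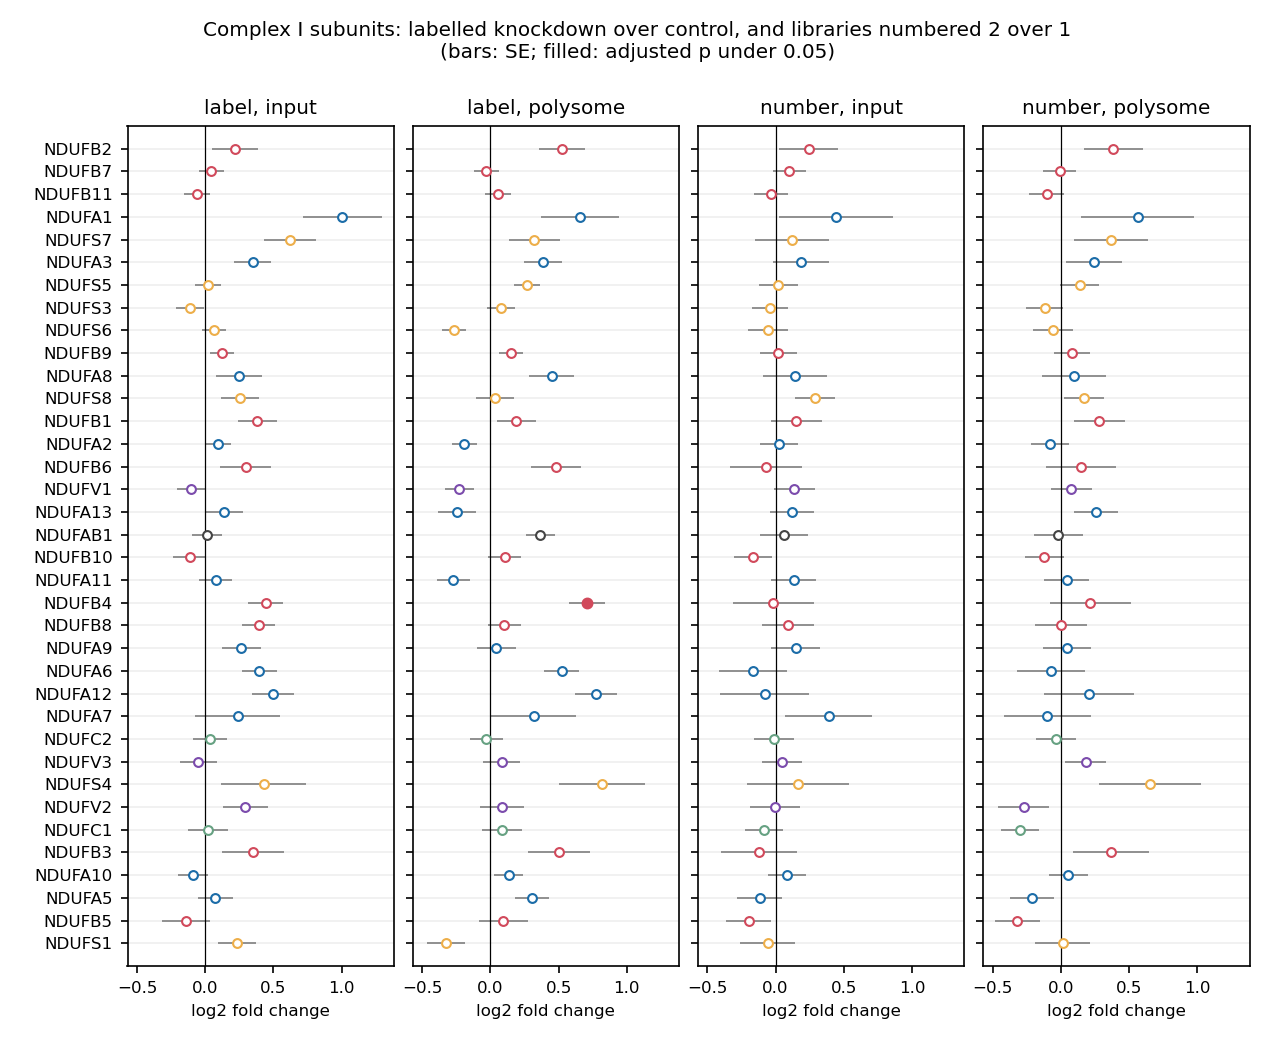
Log2 fold changes of the 36 complex I genes between genotype labels (left panels) and between library numbers (right panels), in input and in polysome RNA, with SE bars and filled points where adjusted p was under 0.05. NDUFB4 in polysome RNA between labels (0.71) is the single filled point; values between numbers lie between -0.20 and 0.44 in input and between -0.32 and 0.66 in polysome RNA.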

How the data were processed

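Input and polysome RNA of OCI-AML3 cells was sequenced in 8 libraries, 2 in each of 4 groups. The authors deposited raw counts of reads by gene, made with Trimmomatic 0.38, Bowtie2 and HTSeq 0.11.2 on GRCh38 per the submitters' processing notes. The sources used here do not give the Bowtie2 version, annotation release or strand setting. Since Bowtie2 is not splice-aware, junction reads may be lost or fall on processed pseudogenes. Lines that name no gene, 13.2% to 15.0% of reads, were left out.

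Tests used edgeR 4.0.16 under R 4.3.3 (TMM, filterByExpr, quasi-likelihood F test). The 8 libraries shared a model with 4 groups and 4 residual degrees of freedom, by fraction and label or by fraction and library number, and p-values were adjusted by Benjamini-Hochberg over 16503 genes. Calls needed an adjusted p under 0.05. The fit was tested on simulated counts with 200 changed genes. These counts had the same spread for all genes and no deviations shared between libraries of a lysate or number. The simulation therefore does not show how often the fit errs on these libraries. Counts of libraries of a group differed by 22.1 to 48.7 chi-square units per degree of freedom, more than counting noise. Gene length and GC content came from GENCODE v29, which holds 58275 of the 58395 identifiers. Alternatives were other normalizations and filters, DESeq2 1.42.0, limma-voom 3.58.1, an offset for GC content and length, blocks, subsets and leaving out each library.

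Input and polysome libraries with the same title code come from the same lysate, per the labels' protocols, and deviated together (correlation 0.31 in labelled controls and 0.36 in labelled knockdowns). Input and polysome libraries of different labels, from different lysates, correlated at 0.27 in either pairing. The correlation was therefore not particular to libraries of the same lysate. Values in every library are given for NDUFB7, NDUFS6, the 6 highest and 6 lowest genes in polysome against input RNA, and selected others; every other comparison names the 3 smallest p and each gene called. Of the other lists, at most the 2 largest absolute changes among called genes are named. The members, lists and rules were chosen with earlier results of these data known. The third codon base and FCER1G were added after the data had been seen.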

Additional observations from a re-analysis of the deposited data

How the results depend on the processing

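With 2 libraries a group and 4 residual degrees of freedom, small changes are not detectable, and leaving out a library assumes that the lone remaining one varies like the other groups and loosens the filter. Polysome against input RNA kept 30 called complex I genes within 1.5 times under every alternative run and 29 to 31 without each library in turn (all genes 5537 to 7705, median 0.70 to 0.77). The median was 0.65 with a filter at a mean of 10 CPM, which tested 35 of the genes. NDUFB3 was called without a filter (-0.38) and at 10 CPM (-0.46), and NDUFC1 at 10 CPM (-0.28). NDUFB5 turned from -0.53 to 0.36 and NDUFA5 from -0.49 to 0.43 with the GC and length offset, and to 0.36 and 0.42 with the lysate block and that offset.

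Between labels in polysome RNA the complex I genes called, 1 as reported, came to 2 with upper quartile normalization, 9 without a filter, 4 at 10 CPM, 5 by DESeq2, 2 by limma-voom, 0 with the offset, 0 in the 4 polysome libraries alone, and 0 to 5 without each library. The count over all genes, 145 as reported, came to 1117 without a filter, 325 at 10 CPM, 1203 by DESeq2, 297 by limma-voom, 1 with the offset, 0 in the 4 libraries and 0 to 1455 without each library; the 1455 are without polysome knockdown 1. Between labels in input RNA 1 complex I gene, NDUFA1, was called without a filter and 0 without each library; over all genes 83 were called without a filter, 76 by DESeq2, 3 by limma-voom and 0 to 1 without each library. NDUFA12 was called in polysome RNA with upper quartile normalization, without a filter, at 10 CPM, by DESeq2 and by limma-voom (0.74 to 0.87), and NDUFA6 without a filter, at 10 CPM and by DESeq2 (0.57 to 0.62). The label difference in polysome association was called for 55 genes without a filter, 10 by DESeq2 and 0 to 55 without each library (55 without polysome knockdown 1), with 0 complex I genes in each of these.

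Between library numbers no alternative called a complex I gene. Over all genes, input RNA gave 38 without a filter, 20 by DESeq2, 7 in the 4 libraries and 1 to 5 without each library (2 as reported). Polysome RNA gave 5 with RLE and 1 with upper quartile normalization, 267 without a filter, 238 by DESeq2, 7 with the offset, 0 in the 4 libraries and 1 to 286 without each library (3 as reported; 286 without polysome control 2). The difference between fractions gave 47 without a filter, 10 by DESeq2 and 0 to 27 without each library. The cause of these changes was not tested.

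The lysate block, a real pairing, changed the call of NDUFB3 and of no other complex I gene named; it called 9 genes in the label difference and 6 in the number difference, and with the offset 24 and 19. For libraries of different labels the sources give no link other than the number. Their deviations were still correlated, at 0.47 in input and 0.18 in polysome RNA over 2 pairs. The 0.47 was above the correlations of input and polysome libraries from the same lysates (0.31 and 0.36). What the libraries of a number have in common was not tested. With the number as a block, 66 genes were called between labels in input RNA (56 with the offset), and 1053 in polysome RNA (796 with the offset), of which 7 were complex I genes, 6 higher and 1 lower, in either fit. With the genotype label as a block, 15 genes were called between numbers in input and 56 in polysome RNA.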

Other observations

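Genes for complexes II to V were also followed along the split by genotype label. In input RNA 31 of the 42 had positive values, with a median of 0.22, and 18 had an unadjusted p under 0.05, but none was called by edgeR; of all genes tested 50.3% were positive and 744 of 16503 had such a p. In polysome RNA 36 had positive values, with a median of 0.21, 20 had an unadjusted p under 0.05 and COX5A was called; of all genes 43.1% were positive and 2987 had such a p. COX5A was at 28.4, 32.6, 40.1 and 43.1 CPM in input control 1 and 2 and input knockdown 1 and 2, and at 36.2, 40.1, 63.0 and 85.1 CPM in the polysome libraries in that order. COX7B, chosen after its values were seen, was at 35.7, 43.7, 59.1 and 60.3 CPM in input and at 80.7, 111, 145 and 201 CPM in polysome RNA, with 0.85 between labels in polysome RNA (SE 0.19, adjusted p = 0.071, edgeR). The assembly factor NDUFAF3, also chosen after its values were seen, was at 46.6, 50.8, 64.1 and 74.2 CPM in input and at 108, 146, 205 and 236 CPM in polysome RNA, with 0.79 between labels in polysome RNA (SE 0.16, adjusted p = 0.051, edgeR). In all 3 genes both labelled knockdown libraries were above both controls in each fraction. COX5A was named for its call between these labels and the others after their values were seen, so this separation is no support for a pattern. The share of all genes separated in both fractions was not counted. The 3 genes were read from the same libraries, so their directions are not independent of each other.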
